A study of Mus musculus with 18 samples.

Results

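The 6 genes described here encode proteins that bind double-stranded RNA in the cytosol or relay its signal: the RIG-I-like receptors Ddx58 (RIG-I), Ifih1 (MDA5) and Dhx58 (LGP2), their adaptor Mavs, the RNA-dependent kinase Eif2ak2 (PKR) and the RNA-editing enzyme Adar (ADAR1). They were chosen by name from the 50600 genes of the expression table, and all 6 passed the filter on low counts that left 16927 genes for testing. RNA from whole subcutaneous B16F10 tumors, a mouse melanoma cell line grown in C57BL/6 mice, was sequenced 24 h after the last intratumoral injection, with 2 tumors in each group. After 1 dose the groups were PBS, unloaded extracellular vesicles (EVs), exoCDN2 (0.1 µg), free CDN2 (20 µg) and free CDN2 (100 µg), and after 2 doses given 3 days apart they were PBS, exoCDN2 (0.1 µg), free CDN2 (20 µg) and free CDN2 of an amount that its labels do not give. CDN2, labelled CL656, is a synthetic cyclic dinucleotide that activates STING, the cytosolic DNA-sensing adaptor, and exoCDN2 is CDN2 loaded into EVs that HEK293 cells engineered to overexpress PTGFRN release. The mice were female and 5 to 6 weeks old when bought, the pairing of tumors across groups is not given in the sources used here, the amounts of free and loaded CDN2 differ by design, and tumors given 2 doses were also taken later, so dose number and time cannot be told apart.

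RIG-I and MDA5 are helicases that recognize different forms of viral or misplaced cellular RNA and then engage MAVS on mitochondria, from where kinases activate the transcription factors that switch on type I interferon genes. LGP2 lacks the signaling domains of the other two and tunes them, PKR halts translation by phosphorylating the initiation factor eIF2 alpha, and ADAR1 edits self RNA so that MDA5 and PKR ignore it. The genes for all of these except Mavs are textbook interferon-stimulated genes. CDN2 acts on STING and not on these receptors, so the comparisons below ask how the transcripts of a neighboring sensing pathway stood after a STING agonist was delivered free or in vesicles.

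Interferon-stimulated genes often carry an interferon-stimulated response element (ISRE) close to the start of transcription, and promoter windows are printed here because the members other than Mavs rose together. The windows are those of RefSeq on GRCm38.p6, 250 bases before to 50 after an annotated start, and the table held 7 of them for Ddx58, Ifih1, Mavs, Eif2ak2 and Adar and none for Dhx58. The ISRE core searched was GAAANNGAAA or, on the other strand, TTTCNNTTTC, and it lay in 3 of the 7 windows, those of Ddx58, Ifih1 and Eif2ak2, against 1131 of the 32851 windows in the table (3.44%). The windows with a match follow with the core in capitals and N bases in lower case, each read 5′ to 3′ on the strand of its gene.
Ddx58, chr4:40239776-40240075, minus strand: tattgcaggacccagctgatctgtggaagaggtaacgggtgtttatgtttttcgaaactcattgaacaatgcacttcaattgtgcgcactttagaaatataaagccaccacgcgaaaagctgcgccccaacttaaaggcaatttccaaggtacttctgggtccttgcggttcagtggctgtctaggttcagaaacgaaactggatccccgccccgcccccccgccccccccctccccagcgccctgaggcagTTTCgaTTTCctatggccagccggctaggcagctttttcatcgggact
Ifih1, chr2:62646206-62646505, minus strand: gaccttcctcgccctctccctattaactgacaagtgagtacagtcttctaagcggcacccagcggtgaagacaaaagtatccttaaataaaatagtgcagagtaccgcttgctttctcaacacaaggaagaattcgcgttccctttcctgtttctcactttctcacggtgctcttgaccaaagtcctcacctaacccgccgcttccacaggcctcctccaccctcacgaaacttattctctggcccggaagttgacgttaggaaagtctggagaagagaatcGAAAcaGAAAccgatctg
Eif2ak2, chr17:78882523-78882822, minus strand: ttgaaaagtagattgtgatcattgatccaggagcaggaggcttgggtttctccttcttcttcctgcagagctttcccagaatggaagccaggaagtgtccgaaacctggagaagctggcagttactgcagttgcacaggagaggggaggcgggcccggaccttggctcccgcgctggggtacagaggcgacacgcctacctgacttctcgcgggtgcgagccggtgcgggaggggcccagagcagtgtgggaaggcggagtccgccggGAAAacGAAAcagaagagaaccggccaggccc
The matches were centered 7, 37 and 23 bases downstream of the annotated starts of Ddx58, Ifih1 and Eif2ak2. The gamma-activated site core TTCNNNGAA was also searched, and it lay in the Eif2ak2 window, in 1 of the 3 Adar windows and in 2726 of all windows (8.3%). The Mavs window is shown for contrast, since Mavs was the 1 member not called changed in any comparison, and it held neither core. The contrast is not a clean one, because none of the 3 Adar windows held the ISRE core either and Adar was called changed. The Adar window with the gamma-activated site core also held gaaagtgaac, 1 base off the ISRE core, which the search did not count. How many of all windows hold such a near match was not counted either.
Mavs, chr2:131233813-131234112, plus strand: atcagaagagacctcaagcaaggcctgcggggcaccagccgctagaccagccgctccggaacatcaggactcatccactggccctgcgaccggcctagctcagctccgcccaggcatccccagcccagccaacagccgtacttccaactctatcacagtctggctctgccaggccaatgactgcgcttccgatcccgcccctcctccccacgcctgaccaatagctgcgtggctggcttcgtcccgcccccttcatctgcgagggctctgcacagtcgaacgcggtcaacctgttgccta
A match to these letters is a description of the sequence and not a measured binding site.

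Levels are given as CPM, the count of a gene relative to the total count of its tumor and scaled between tumors by TMM, and a gene was called changed where the adjusted p of edgeR's quasi-likelihood test was under 0.05 and the ratio over 2. The total count of a tumor lay between 21608895 and 65983630, and the members held between 195 and 21145 counts each per tumor. The 7 melanocyte lineage markers were detected in every tumor. The 2 tumors given 2 doses of free CDN2 (20 µg) stood apart from each other: 27.4% of the tested genes differed more than 2-fold between them, against 4.02% to 12.2% in the other groups. In the first and the second of these tumors the summed CPM of the 6 neutrophil markers was 870.0 and 198, that of the 3 leukocyte markers 434 and 177, that of the 4 skeletal muscle markers 3449 and 1674 and that of the melanocyte lineage markers 7409 and 12884, whereas melanocyte markers summed to 19913 to 25110 in every tumor outside the 2-dose exoCDN2 and CDN2 (20 µg) groups. In whole-tumor RNA, fewer cells of a type and less RNA per cell cannot be told apart, and the part of these markers in the results for the members was not tested.

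**Figure D1:**
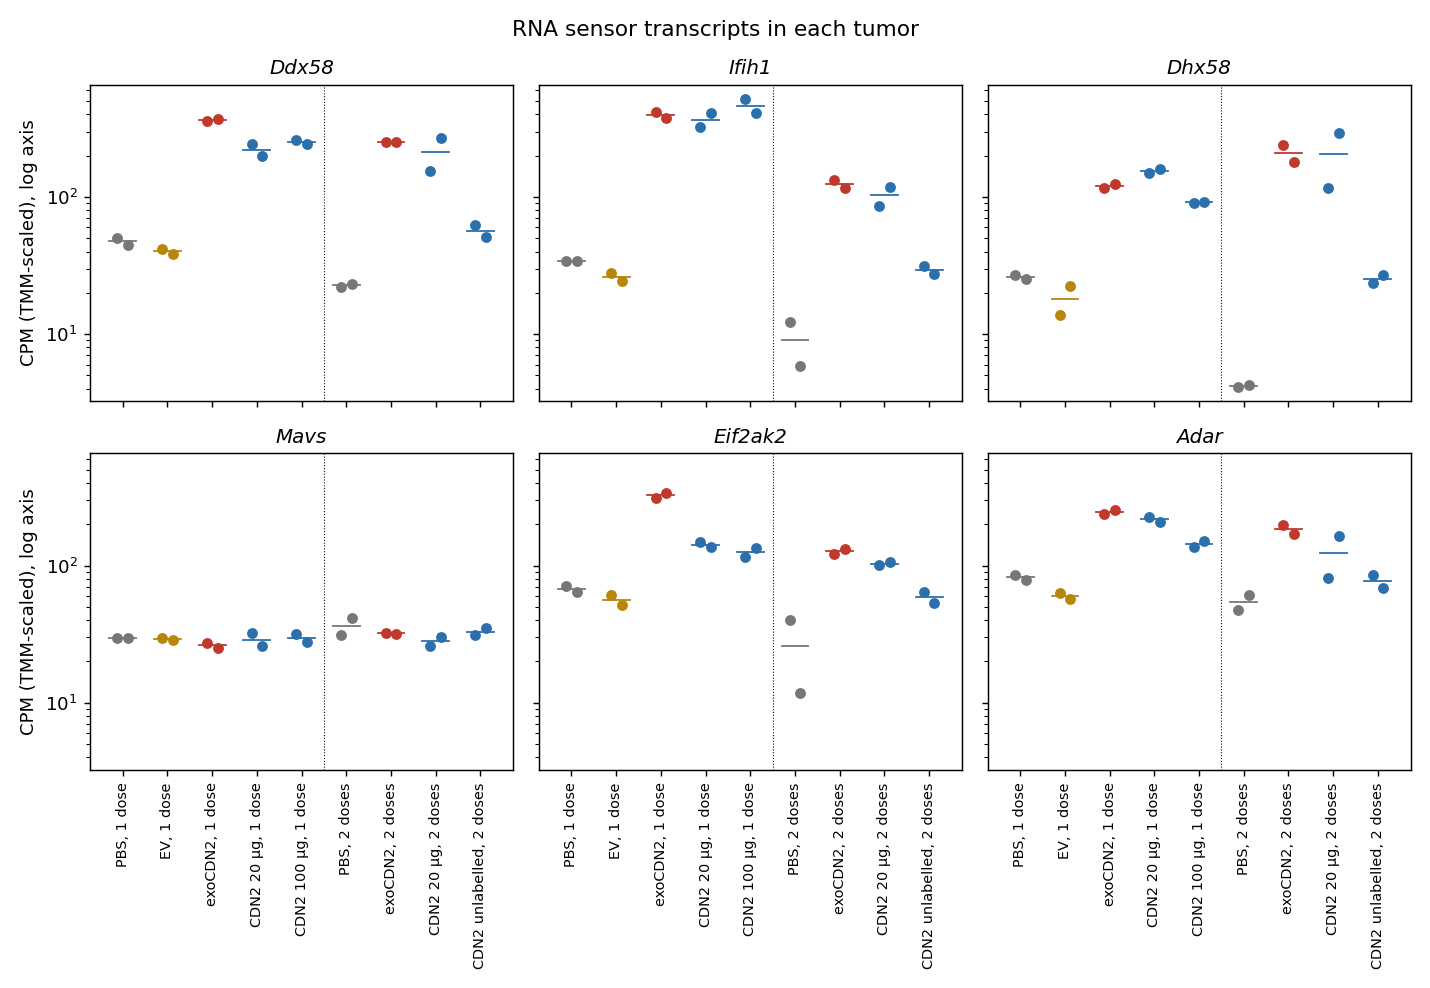
CPM of each of the 6 genes in each of the 18 tumors on a log axis, with 2 points and their mean (line) per group, 1-dose groups left and 2-dose groups right of the dotted line. Ddx58, Ifih1, Dhx58, Eif2ak2 and Adar stood higher in every exoCDN2 and CDN2 tumor of known amount than in the PBS tumors of the same dose number, and Mavs lay between 25.3 and 41.4 CPM in all 18 tumors.

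Ddx58 (ENSMUSG00000040296), on the minus strand at chr4:40203773-40239828 of GRCm38, encodes RIG-I, which senses RNA with a 5′ triphosphate end. In PBS tumors after 1 dose it stood at 50.1 and 44.8 CPM, and in EV tumors at 41.8 and 38.7 CPM. It stood at 359 and 374 CPM after exoCDN2, at 243 and 198 CPM after 20 µg of CDN2 and at 261 and 244 CPM after 100 µg. Every tumor given CDN2 in either form was thus above every PBS and EV tumor, and the exoCDN2 tumors were above the free CDN2 tumors. The log2 change against PBS was 2.95 ± 0.22 (SE, n = 2 per group, edgeR with Benjamini-Hochberg adjustment, adjusted p = 2.86e-05) for exoCDN2, 7.73-fold, 2.22 ± 0.21 (adjusted p = 0.000132) for CDN2 (20 µg) and 2.41 ± 0.22 (adjusted p = 7.87e-05) for CDN2 (100 µg).

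Ifih1 (ENSMUSG00000026896), at chr2:62595798-62646255 on the minus strand, encodes MDA5, the sensor of long double-stranded RNA. It rose most of the 6 after 1 dose: from 34.3 and 34.0 CPM in PBS tumors to 414 and 375 CPM after exoCDN2, 326 and 409 CPM after CDN2 (20 µg) and 516 and 414 CPM after CDN2 (100 µg), with 27.8 and 24.4 CPM in EV tumors. The exoCDN2 and CDN2 tumors overlapped each other. The log2 change against PBS was 3.53 ± 0.30 (adjusted p = 4.9e-05), 11.6-fold, for exoCDN2, 3.43 ± 0.30 (adjusted p = 6.93e-05) for 20 µg and 3.77 ± 0.30 (adjusted p = 4.9e-05) for 100 µg, all by edgeR.

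Dhx58 (ENSMUSG00000017830), at chr11:100694884-100704271 on the minus strand, encodes LGP2, the RIG-I-like receptor without signaling domains. PBS tumors held 26.8 and 25.1 CPM and EV tumors 13.8 and 22.6 CPM. After 1 dose it stood at 117 and 124 CPM with exoCDN2, 150.4 and 159 CPM with CDN2 (20 µg) and 90.6 and 92.2 CPM with CDN2 (100 µg), so that these 3 groups did not overlap. The log2 changes against PBS were 2.21 ± 0.35 (edgeR adjusted p = 0.00347), 2.58 ± 0.35 (adjusted p = 0.00136) and 1.82 ± 0.34 (adjusted p = 0.0137) in that order. The antisense gene Dhx58os shares exon sequence with Dhx58 and held at most 17 counts in a tumor.

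Mavs (ENSMUSG00000037523), at chr2:131234063-131248025 on the plus strand, encodes the mitochondrial adaptor through which RIG-I and MDA5 signal. It was not called changed in any comparison. After 1 dose it stood at 29.5 and 29.5 CPM in PBS tumors, 29.7 and 28.9 CPM in EV tumors, 27.2 and 25.3 CPM after exoCDN2, 32.0 and 25.7 CPM after CDN2 (20 µg) and 31.5 and 27.7 CPM after CDN2 (100 µg). The log2 difference between exoCDN2 and PBS was -0.17, with a 95% interval of -0.53 to 0.19 (edgeR adjusted p = 0.694), and the intervals against PBS were -0.39 to 0.33 for 20 µg and -0.35 to 0.36 for 100 µg.

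Eif2ak2 (ENSMUSG00000024079), at chr17:78852564-78882573 on the minus strand, encodes PKR. It stood at 70.7 and 64.1 CPM in PBS tumors and 60.8 and 51.4 CPM in EV tumors, and at 311 and 340.4 CPM after 1 dose of exoCDN2. Free CDN2 gave 149 and 136 CPM at 20 µg and 115 and 135 CPM at 100 µg, above PBS and below exoCDN2 in every tumor. The change against PBS passed the test for exoCDN2, with a log2 value of 2.27 ± 0.39 (edgeR adjusted p = 0.00633), and did not pass it for 20 µg (1.08 ± 0.38, adjusted p = 0.164) or 100 µg (0.89 ± 0.37, adjusted p = 0.274). The value for 20 µg passed with the PBS tumors of both dose numbers pooled (1.61, adjusted p = 0.0393), with no filter on low counts (1.08, adjusted p = 3.73e-06) and in a fit of the compared groups alone (1.07, adjusted p = 0.00655).

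Adar (ENSMUSG00000027951), at chr3:89715022-89753446 on the plus strand, encodes ADAR1 from a constitutive and an interferon-inducible promoter, which a count per gene does not separate. PBS tumors held 85.3 and 78.7 CPM and EV tumors 62.9 and 57.2 CPM. The level was 236 and 256 CPM after exoCDN2, 228 and 208 CPM after CDN2 (20 µg) and 136 and 150.5 CPM after CDN2 (100 µg), and these 3 groups did not overlap. The log2 change against PBS was 1.59 ± 0.26 (edgeR adjusted p = 0.00425) for exoCDN2 and 1.41 ± 0.25 (adjusted p = 0.00833) for 20 µg, and the value for 100 µg, 0.80 ± 0.25, missed the threshold (adjusted p = 0.13). That value passed with the PBS tumors of both dose numbers pooled (1.07, adjusted p = 0.0246). Exons of Adar overlap those of Chrnb2 on the other strand, which held 65 to 503 counts in a tumor.

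By count, 1 dose of exoCDN2 raised 5 of the 6 members against PBS, where 2.2% of all tested genes were called higher, CDN2 (20 µg) raised 4 (2.26% of all genes) and CDN2 (100 µg) raised 3 (1.82% of all genes). The median log2 change over the 6 was 2.24 for exoCDN2 against -0.02 over all genes, 1.81 for 20 µg and 1.35 for 100 µg. Without either PBS tumor, exoCDN2 raised 2 of 6, Ddx58 and Ifih1. Dhx58, Eif2ak2 and Adar then had adjusted p values of 0.0613 to 0.107 at log2 changes of 1.53 to 2.34. Adar also missed the threshold for CDN2 (20 µg) without either PBS tumor or the second CDN2 tumor, with adjusted p values of 0.0541 to 0.118. Dhx58 missed it for CDN2 (100 µg) when any 1 of the 4 tumors was left out, with adjusted p values of 0.0777 to 0.177. Summed neutrophil marker CPM also stood above PBS (4.48 and 4.73) in these tumors. It was 64.0 and 38.8 with exoCDN2, 13.5 and 31.5 with CDN2 (20 µg) and at most 17.1 with CDN2 (100 µg). The leukocyte markers overlapped PBS with exoCDN2 (86.0 and 75.7 against 62.8 and 77.6). With exoCDN2 the macrophage markers lay below PBS, at 196 and 195 against 266 and 336. T cell markers did too (2.24 and 3.68 against 7.35 and 9.43), as did keratinocyte (1.53 and 0.184 against 115 and 61.8) and dendritic cell markers. NK cell, fibroblast, endothelial and skeletal muscle markers lay above PBS with exoCDN2. Free CDN2 tumors differed from PBS in other markers too. With CDN2 (20 µg) endothelial markers stood at 27.4 and 28.1 against 74.0 and 77.3, while T cell markers overlapped PBS. With CDN2 (100 µg) T cell markers stood at 1.24 and 1.48, and fibroblast markers at 753 and 632 against 275 and 355. The part of all these markers in the changes of the members was not tested.

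**Figure D2:**
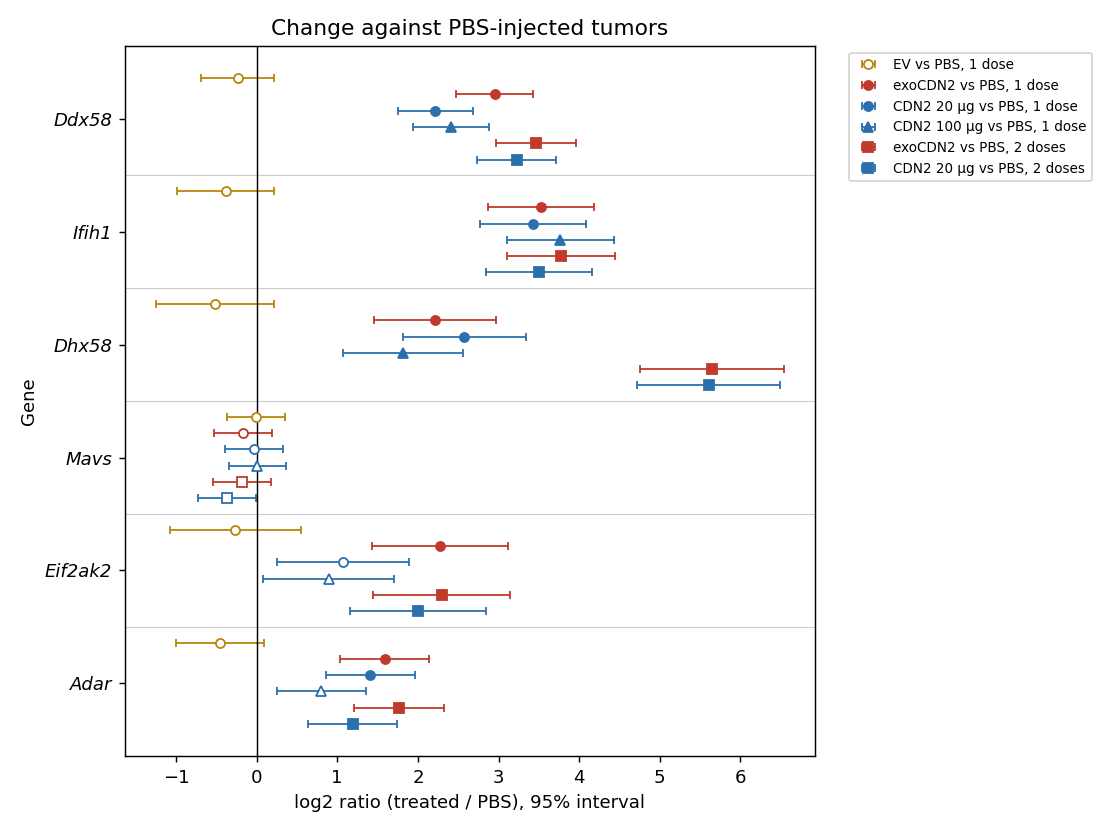
Log2 ratio of each treated group to the PBS tumors of the same dose number for each gene, with its 95% interval. Filled symbols mark genes called changed; the Mavs symbols are all open and lie between -0.37 and 0.01, and Dhx58 lies at 5.65 and 5.61 after 2 doses against 1.82 to 2.58 after 1.

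In EV tumors the fitted value of each member lay slightly below that of the PBS tumors. The log2 differences ran from -0.51 for Dhx58 to -0.01 for Mavs, and 0 of 6 were called changed by edgeR, 0 at an unadjusted p under 0.05 and 0 by DESeq2, where 0% of all genes were called by edgeR. The widest 95% interval was that of Eif2ak2, -1.08 to 0.55. With the PBS tumors of both dose numbers pooled, Ddx58, Ifih1, Dhx58 and Eif2ak2 lay above PBS, by 0.20 to 0.27, so these directions rest on the choice of PBS tumors. Against the EV tumors, exoCDN2 raised the same 5 of 6 members (2.52% of all genes were called higher), from a log2 change of 2.04 ± 0.26 for Adar (edgeR adjusted p = 0.000738) to 3.91 ± 0.31 for Ifih1 (adjusted p = 1.88e-05). Without the second EV tumor Eif2ak2 missed the threshold (2.42, adjusted p = 0.0551). The EV and PBS comparisons share the exoCDN2 tumors.

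The 2 forms of CDN2 were given at amounts that differ, 0.1 µg in EVs and 20 µg free, so their values stand side by side without a comparison of potency. After 1 dose no member was called different by edgeR, where 0.201% of all genes were higher and 0.408% lower with exoCDN2, but 2 of 6 had an unadjusted p under 0.05 and DESeq2 called 1. Eif2ak2 was 2.29-fold higher in exoCDN2 tumors, a log2 difference of 1.20 with a 95% interval of 0.38 to 2.02 (edgeR adjusted p = 0.115). It was called higher by DESeq2 (1.22, adjusted p = 0.0223), with no filter on low counts (1.20, adjusted p = 3.9e-07) and in a fit of the compared groups alone (1.20, adjusted p = 0.0292). Ddx58 was 0.73 higher on the log2 scale, with an interval of 0.29 to 1.18 (edgeR adjusted p = 0.0881). For Ifih1 the interval was -0.49 to 0.70, for Dhx58 -1.08 to 0.36, for Mavs -0.49 to 0.22 and for Adar -0.37 to 0.72, so a difference of up to about these sizes remains possible. Between 100 µg and 20 µg of free CDN2, 0 of 6 members were called (0.23% of all genes higher and 0.224% lower), with 2 at an unadjusted p under 0.05 and 0 by DESeq2. Those 2 were lower at the larger amount: Dhx58 by a log2 value of -0.76 (95% interval -1.48 to -0.04) and Adar by -0.61 (-1.15 to -0.06).

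Second doses were compared with PBS tumors that had themselves been injected a second time, and in those the sensors stood low. PBS tumors after 2 doses held 22.1 and 23.3 CPM of Ddx58, 12.3 and 5.87 CPM of Ifih1, and 4.12 and 4.27 CPM of Dhx58. Each of these lay below both 1-dose PBS tumors. The log2 difference between 2-dose and 1-dose PBS was -1.06 ± 0.21 for Ddx58 (edgeR adjusted p = 0.0286), -1.91 ± 0.29 for Ifih1 (adjusted p = 0.00453) and -2.63 ± 0.36 for Dhx58 (adjusted p = 0.00246), so 3 of 6 members were lower where 1.05% of all genes were. Eif2ak2 held 40.0 and 11.8 CPM (log2 difference -1.38, adjusted p = 0.139), Adar 47.7 and 60.7 CPM (-0.60, adjusted p = 0.419) and Mavs 31.1 and 41.4 CPM (0.30, adjusted p = 0.597). The Eif2ak2 difference passed with DESeq2 (-1.37, adjusted p = 0.0135), with no filter (-1.39, adjusted p = 6.9e-10) and without the first 2-dose PBS tumor (-2.52, adjusted p = 0.000286). Without the second 2-dose PBS tumor, 1 of 6 members was called, Ifih1, and Dhx58 then had an adjusted p of 0.0641. Ddx58 missed the threshold when any 1 of the 4 PBS tumors was left out (adjusted p = 0.0967 to 0.24), and Ifih1 missed the threshold in a fit of the 2 PBS groups alone (-1.92, adjusted p = 0.0842). The 1-dose PBS tumors also held more keratinocyte marker RNA, 61.8 to 115 summed CPM over 4 genes against 0.0438 to 0.429 after 2 doses, more leukocyte marker RNA, 62.8 and 77.6 against 40.3 and 30.6, and more T cell marker RNA, 7.35 to 9.43 against 0.854 to 1.82, and the part of these in the PBS difference was not tested.

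After 2 doses of exoCDN2, Dhx58 stood at 241 and 179.5 CPM, against 4.12 and 4.27 CPM in PBS tumors, a 50.1-fold difference. Its log2 change of 5.65 ± 0.41 (edgeR adjusted p = 5.27e-06) was the widest of the 6. Ddx58 stood at 250.0 and 252 CPM (log2 change 3.47 ± 0.23, adjusted p = 2.3e-06), and Ifih1 at 133 and 116 CPM (3.78 ± 0.31, adjusted p = 1.14e-05). The kinase Eif2ak2 stood at 122 and 133 CPM (2.30 ± 0.39, adjusted p = 0.00194) and the editor Adar at 199 and 171 CPM (1.77 ± 0.26, adjusted p = 0.000689). Mavs, at 32.1 and 31.9 CPM, overlapped PBS (-0.18, 95% interval -0.54 to 0.17). In all, 5 of 6 were higher, where 8.87% of all genes were, and the same 5 were called when any 1 of the 4 tumors was left out. Marker RNA of other cells also differed between these groups. In summed CPM the exoCDN2 tumors held 305 and 190.1 of the leukocyte markers against 40.3 and 30.6 in PBS tumors, 467 and 311 of 7 macrophage markers against 167 and 145, 34.5 and 26.5 of 6 T cell markers against 1.82 and 0.854, and 26.1 and 18.8 of 4 NK cell markers against 2.16 and 1.01. Neutrophil markers stood at 60.3 and 17.8 against 1.98 and 1.55, and melanocyte lineage markers were lower, at 15066 and 16212 against 23528 and 23867. The part of these markers in the change of the members was not tested.

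Free CDN2 (20 µg) given in 2 doses gave Ddx58 at 154 and 269 CPM, Ifih1 at 86.4 and 119 CPM and Dhx58 at 117 and 292 CPM. The first of these 2 tumors was the lower for all 6 members, and it is the shallowest library of the series, with the lowest melanocyte and the highest neutrophil marker CPM. Eif2ak2 stood at 101 and 106 CPM, Adar at 81.5 and 165 CPM and Mavs at 25.7 and 30.3 CPM. Against PBS, 5 of 6 were higher (20% of all genes were), with log2 changes of 3.22 ± 0.22 for Ddx58, 3.50 ± 0.30 for Ifih1, 5.61 ± 0.41 for Dhx58, 2.00 ± 0.39 for Eif2ak2 and 1.19 ± 0.25 for Adar (edgeR adjusted p = 0.00254 for Adar and at most 0.00144 for the others). Adar rested on the second tumor: without it the log2 change was 0.54, under the limit on the ratio, and without the first tumor it was 1.60. It also fell under that limit with the PBS tumors pooled (0.86), and it missed the threshold in a fit of the compared groups alone (1.17, adjusted p = 0.0726). Mavs was lower than PBS by a log2 value of -0.37 (95% interval -0.72 to -0.01, adjusted p = 0.0809).

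Between exoCDN2 and free CDN2 (20 µg) after 2 doses, 0 of 6 members were called different by edgeR and 0 by DESeq2, with 1 at an unadjusted p under 0.05, where 7.34% of all genes were higher and 12% lower in exoCDN2 tumors. The log2 differences were 0.24 for Ddx58 (95% interval -0.20 to 0.69), 0.27 for Ifih1 (-0.32 to 0.87), 0.04 for Dhx58 (-0.68 to 0.75), 0.18 for Mavs (-0.17 to 0.54), 0.29 for Eif2ak2 (-0.52 to 1.11) and 0.58 for Adar (0.03 to 1.12, edgeR adjusted p = 0.0864). Without the second free CDN2 tumor, Adar was called higher with exoCDN2 (1.22, adjusted p = 0.000166). Without the first, Dhx58 stood at -0.48 and Ddx58 at -0.11, so the sign of both differences turned with that tumor, and Dhx58 stood at -0.17 without the first exoCDN2 tumor.

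From 1 dose to 2, Ifih1 was lower and Dhx58 was not. In exoCDN2 tumors Ifih1 fell from 414 and 375 to 133 and 116 CPM, a log2 change of -1.66 ± 0.28 (edgeR adjusted p = 0.00439), and Eif2ak2 fell from 311 and 340.4 to 122 and 133 CPM, a change of -1.36 ± 0.38 (adjusted p = 0.0372). Dhx58 stood higher in both 2-dose tumors than in both 1-dose tumors, by 0.80 ± 0.33 (adjusted p = 0.137). Ddx58 differed by -0.55 ± 0.21 (adjusted p = 0.105), Adar by -0.41 ± 0.25 (adjusted p = 0.313) and Mavs by 0.29 ± 0.16 (adjusted p = 0.284). Thus 2 of 6 members were lower, where 2.34% of all genes were. The call for Eif2ak2 was lost when any 1 of the 4 tumors was left out (adjusted p = 0.109 to 0.248), and that for Ifih1 without the first 1-dose exoCDN2 tumor (-1.59, adjusted p = 0.0526). In free CDN2 (20 µg) tumors Ifih1 was likewise lower after 2 doses, by -1.83 ± 0.28 (adjusted p = 0.00113), the 1 member of 6 called, where 6.36% of all genes were lower, and it was called with any 1 tumor left out. Adar was lower by -0.81 ± 0.25 (adjusted p = 0.0256), under the limit on the ratio, and by -1.47 (adjusted p = 5.82e-05), past it, without the second 2-dose tumor. Dhx58 differed by 0.41 ± 0.33 (adjusted p = 0.35) and Ddx58 by -0.05 ± 0.20 (adjusted p = 0.855), and without the second 2-dose tumor Dhx58 stood at -0.45.

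**Figure D3:**
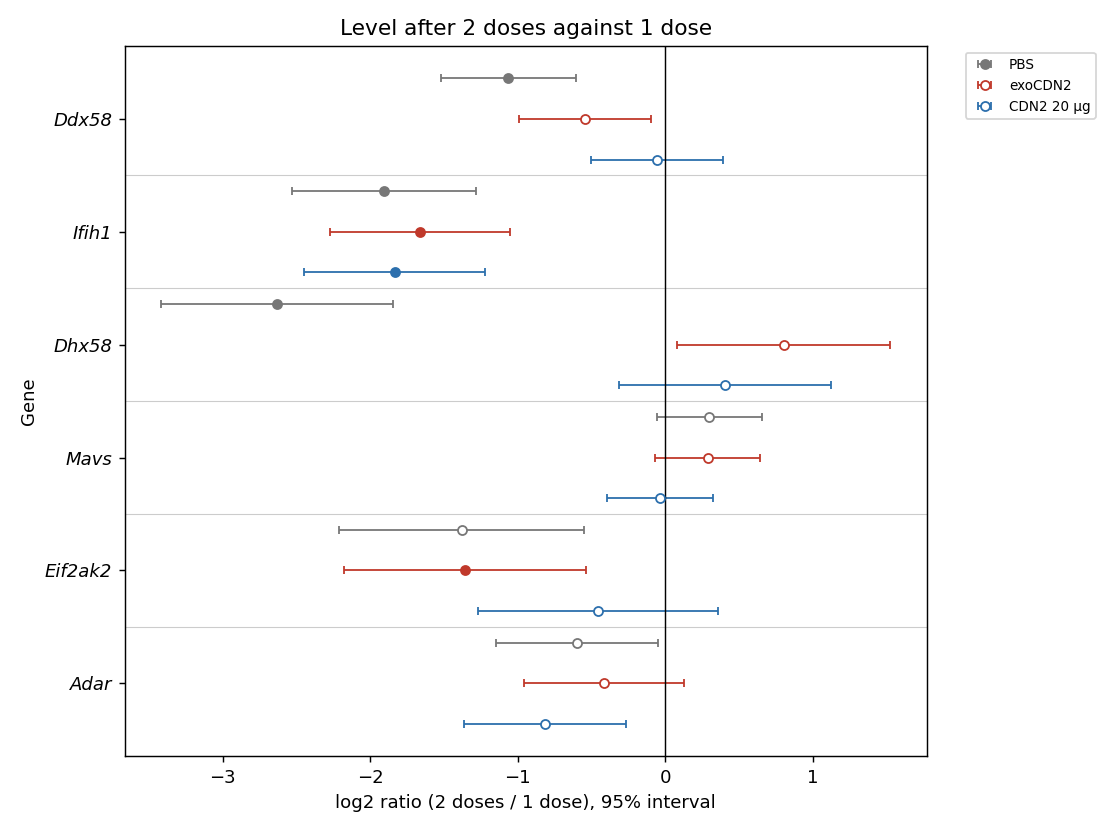
Log2 ratio of the level after 2 doses to the level after 1 dose for each gene in PBS, exoCDN2 and CDN2 (20 µg) tumors, with its 95% interval, filled where called changed. Ifih1 lies at -1.66 to -1.91 in all 3 treatments, whereas Dhx58 lies at -2.63 in PBS tumors and at 0.80 and 0.41 in exoCDN2 and CDN2 tumors.

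Since PBS tumors also differed between the dose numbers, the change was tested relative to PBS. For Ifih1 the treated and PBS tumors fell by like amounts: relative to PBS the change from 1 dose to 2 was 0.25 ± 0.39 for exoCDN2 (edgeR adjusted p = 0.781) and 0.07 ± 0.39 for CDN2 (adjusted p = 0.909). For Eif2ak2 it was 0.02 ± 0.52 with exoCDN2 (adjusted p = 0.99) and 0.93 ± 0.53 with CDN2 (adjusted p = 0.224). Without the first 2-dose PBS tumor both Eif2ak2 values passed, at 1.16 (adjusted p = 0.012) and 2.04 (adjusted p = 0.00169), which made 2 of 6 members for exoCDN2. Dhx58 fell in PBS tumors and did not in treated ones. Relative to PBS its change was 3.43 ± 0.49 for exoCDN2 (adjusted p = 0.00192) and 3.03 ± 0.49 for CDN2 (adjusted p = 0.00309). It was the 1 member called for exoCDN2, where 5.12% of all genes were higher, and 1 of 2 for CDN2, where 11.7% were. The other was Ddx58, at 1.01 ± 0.29 (edgeR adjusted p = 0.0302), just past the limit on the ratio. Ddx58 too fell in PBS tumors (-1.06), and from 1 dose to 2 it differed by -0.05 with CDN2 and -0.55 with exoCDN2. The Dhx58 calls held with each of the 8 tumors left out in turn, and the Ddx58 call in 1 of 8 such fits. The difference between exoCDN2 and CDN2 in the change from 1 dose to 2 was called for 0 of 6 by edgeR and by DESeq2, and 0 had an unadjusted p under 0.05 (2.97% of all genes were higher and 5.34% lower). Without the second 2-dose CDN2 tumor 2 of 6 were called, Dhx58 (1.22, adjusted p = 0.00942) and Adar (1.02, adjusted p = 0.00359).

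Read per kilobase of exon, so that genes can be set against each other within a tumor, the order of the members turned with dose number. In PBS tumors after 1 dose the order was Eif2ak2 (13.2 CPM per kb), Adar, Mavs (8.82), Dhx58 (7.94), Ddx58 (6.73) and Ifih1 (4.18), with no overlap between neighbors. After 1 dose of exoCDN2 it was Eif2ak2 (63.7), Ddx58 (52.0), Ifih1 (48.3), Dhx58 (36.9), Adar (30.3) and Mavs (7.84), again with no overlap between neighbors. After 2 doses of exoCDN2 Dhx58 stood first (64.3), then Ddx58 (35.6), Eif2ak2 (24.9), Adar (22.8), Ifih1 (15.3) and Mavs (9.57), where Eif2ak2 and Adar overlapped. With free CDN2 (20 µg), Dhx58 and Ifih1 led after 1 dose (47.3 and 45.0, overlapping), and after 2 doses Ifih1 (12.6) stood below Dhx58 (62.4) and Ddx58 (30.0). In PBS tumors after 2 doses Mavs stood first (10.8), and Dhx58 (1.28) and Ifih1 (1.11) last, overlapping each other.

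The ratio of Ifih1 to Dhx58 within a tumor, both per kilobase, does not depend on the scaling between tumors. It was 1.42 and 1.21 after 1 dose of exoCDN2 and 0.221 and 0.259 after 2, and 0.868 and 1.03 after 1 dose of CDN2 (20 µg) against 0.296 and 0.163 after 2. All 4 tumors given 2 doses of either form lay below all 4 given 1. In PBS tumors it was 0.513 and 0.542 after 1 dose and 1.20 and 0.551 after 2. The smallest two-sided p of an exact permutation test of 2 tumors against 2 is 0.333, so this ratio is a description.

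**Figure D4:**
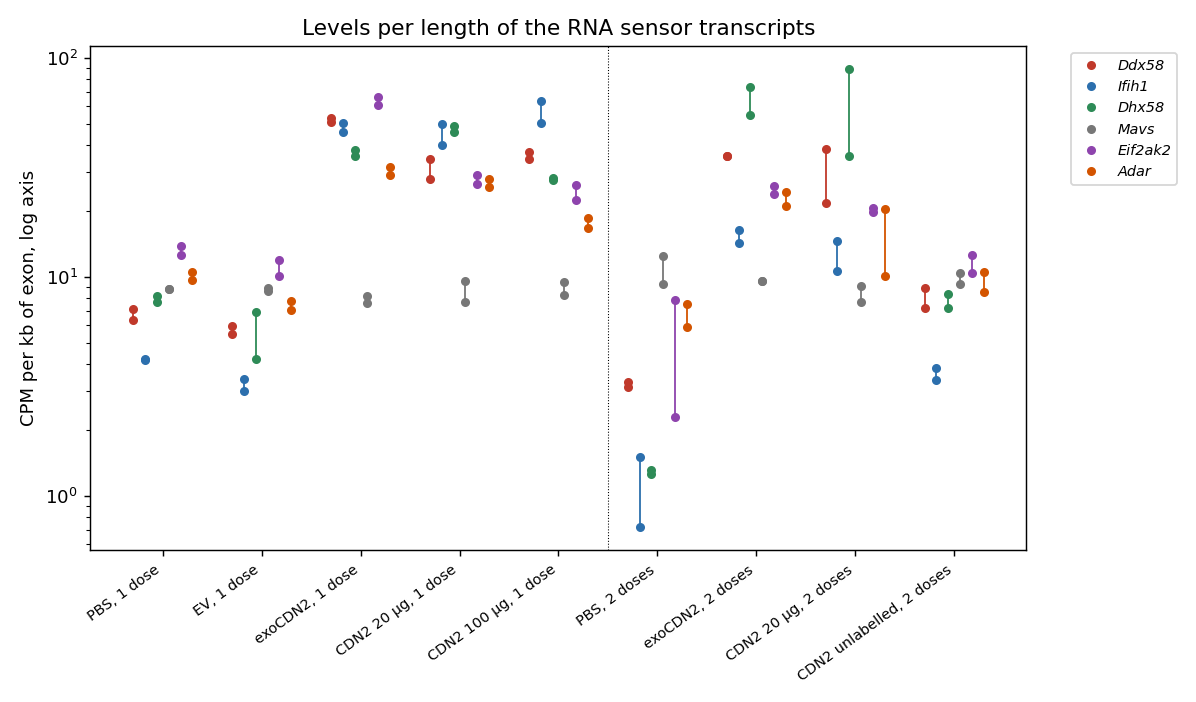
CPM per kilobase of exon of each gene in each tumor on a log axis, with a line joining the 2 tumors of a group. After 1 dose of exoCDN2 Ifih1 lies above Dhx58, and after 2 doses Dhx58 leads at 64.3 on average while Ifih1 lies at 15.3.

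The 2 tumors given 2 doses of free CDN2 at an amount their labels do not state were fitted with the other 16. They held 62.8 and 50.8 CPM of Ddx58, 31.3 and 27.6 CPM of Ifih1, 23.6 and 27.2 CPM of Dhx58, 64.4 and 53.0 CPM of Eif2ak2, 85.7 and 69.2 CPM of Adar and 31.1 and 35.0 CPM of Mavs. Against 2-dose PBS, Ddx58 (1.32), Ifih1 (1.69) and Dhx58 (2.60) were higher on the log2 scale with edgeR adjusted p values of 0.00606, 0.00606 and 0.00117, so 3 of 6 members were higher where 0.918% of all genes were. With the PBS tumors of both dose numbers pooled, 0 of 6 were called, and without the second PBS tumor 1 of 6, Dhx58. Eif2ak2 differed by 1.18 (adjusted p = 0.212) and by 2.32 (adjusted p = 0.000337) without the first PBS tumor. Against these tumors 2 doses of exoCDN2 raised 4 of 6 members, Ddx58 (2.14), Ifih1 (2.08), Dhx58 (3.05) and Adar (1.25), where 4.97% of all genes were higher. Adar missed the threshold without the second tumor of unlabelled amount (1.11, adjusted p = 0.108) or the first exoCDN2 tumor (1.14, adjusted p = 0.135).

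The genes that most resembled each member across the 16 tumors of known amount were found by Pearson's r of log2 CPM, a description over tumors that share their groups. For Ddx58 they were Stat2 (0.985), Irf9 (0.971) and Usp18 (0.970), of which the first pair encode subunits of the factor that binds the ISRE. For Ifih1 they were Gm20559 (0.988), Ifit1 (0.988) and Mx1 (0.987), and for Dhx58 Oasl2 (0.988), Trim34a (0.984) and Trim12a (0.983). For Eif2ak2 they included Gm6548 (0.988) and Phf11c (0.961), where Gm6548 is annotated as a processed pseudogene next to the 3′ end of Eif2ak2 on the same strand, so its reads may not be separate. For Adar they were Rnf213 (0.982), Tor1aip1 (0.977) and Pml (0.972). Mavs was least like the rest, with Usp21 (0.873) and Rubcn (0.860) among the nearest. Among the members, r ran from 0.811 to 0.937 between the 5 interferon-stimulated genes, and from -0.331 to -0.711 between Mavs and each of them.

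Other RNA-binding sensors and effectors, a list of 18 that holds the endosomal receptors Tlr3, Tlr7 and Tlr8, the OAS and IFIT families and Zbp1, rose with the members. After 1 dose 15 of 18 were higher with exoCDN2, 15 with CDN2 (20 µg) and 14 with CDN2 (100 µg), and after 2 doses 18 were with exoCDN2 and 17 with CDN2 (20 µg). Their median log2 change was 2.71, 2.48, 2.06, 4.28 and 4.85 in that order, against medians over all genes between -0.02 and 0.01. Of all genes 2.2%, 2.26%, 1.82%, 8.87% and 20% were called higher in the same order. Between 2-dose and 1-dose PBS tumors 1.05% of all genes were lower. With 1 dose of exoCDN2, the IFIT family members Ifit3 and Ifit3b rose by 4.35 ± 0.34 and 4.46 ± 0.36, and Oasl2 by 2.52 ± 0.19. After 2 doses Oasl2 (5.78 ± 0.22), Oas3 (7.06 ± 0.37) and Oas1g (3.70 ± 0.22) had the smallest p values, all of the OAS family, which senses double-stranded RNA. In 2-dose against 1-dose PBS tumors 9 of 18 were lower (6 to 11 with 1 tumor left out), among them Oasl2 (-2.92 ± 0.20). With 1 tumor left out at a time, the counts were 12 to 14 for 1 dose of exoCDN2, 11 to 14 for CDN2 (20 µg), 8 to 11 for CDN2 (100 µg), 16 to 18 for 2 doses of exoCDN2 and 15 to 18 for 2 of CDN2. Reads of the Oas1 and Ifit paralogs can be split between near-identical copies, so these members are uncertain one by one.

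From 1 dose of exoCDN2 to 2, genes of that list were called in both directions. Oas3 (2.19 ± 0.29), Zbp1 (2.07 ± 0.41) and Tlr8 (1.99 ± 0.44) were among 4 that were higher after 2 doses, and Ifit1 (-2.81 ± 0.50), Oas1b (-1.34 ± 0.24) and Ifit3b (-1.62 ± 0.32) among 7 that were lower. Over all genes 5.1% were higher and 2.34% lower. With 1 tumor left out at a time, 1 to 5 of the list were higher and 0 to 2 lower.

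Cofactors that modify or assist the receptors made a list of 13, and 4 were higher after 1 dose of exoCDN2, of CDN2 (20 µg) and of CDN2 (100 µg), the last with 2 to 4 when 1 tumor was left out. Trim25, the ubiquitin ligase of RIG-I, rose by 2.19 ± 0.15 with exoCDN2, Rnf135, another ligase of RIG-I, by 1.94 ± 0.21, and Zc3hav1, the antiviral zinc-finger protein ZAP, by 1.35 ± 0.12. The share of all genes called higher in these comparisons was 2.2%, 2.26% and 1.82%. After 2 doses 3 were higher with exoCDN2 (8.87% of all genes), with Ddx60, a helicase linked to RIG-I, at 5.08 ± 0.41, and with CDN2 4 were higher (20% of all genes) and 1, the helicase Dhx9, was lower (-1.69 ± 0.31), where 10.6% of all genes were lower. Without the second 2-dose CDN2 tumor, or without the second 2-dose PBS tumor, 5 of 13 were lower.

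Few transcripts of the adaptors and kinases that carry the signal onward from MAVS were called higher. Of 18 tested, 1 was higher after 1 dose of exoCDN2 and of CDN2 (20 µg), in both cases the kinase Ripk1 (1.11 ± 0.13 and 1.10 ± 0.13). After 2 doses 1 was higher with either form, the adaptor Traf5 (1.64 ± 0.40 and 1.26 ± 0.41). Over all genes 2.2% and 2.26% were higher after 1 dose, and 8.87% and 20% after 2. The counts of 1 are thus near that share, or under it with 2 doses of CDN2. With 1 tumor left out the count was 1 in every fit for 1 dose of exoCDN2 and 0 to 1 for the other 3 comparisons. Of the 6 transcription factors and their inhibitor downstream, 2 rose after 1 dose of exoCDN2, Irf7 (2.29 ± 0.27) and Nfkbia (2.91 ± 0.66), 4 after CDN2 (20 µg) and 1 after CDN2 (100 µg), and with 1 tumor left out the exoCDN2 count was 1 in each of 4 fits, the CDN2 (20 µg) count 1 to 4 and the CDN2 (100 µg) count 0 to 1. In these 1-dose comparisons 2.2%, 2.26% and 1.82% of all genes were called higher. After 2 doses Irf7, the amplifier of interferon genes, was higher by 5.77 ± 0.31 with exoCDN2 and 6.51 ± 0.32 with CDN2.

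Of 15 tested brakes on RNA sensing, 2 rose after 1 dose of each CDN2 treatment, Isg15, a ubiquitin-like modifier of RIG-I (3.30 ± 0.25 with exoCDN2), and Tnfaip3, the inhibitor A20 (3.50 ± 0.41). Among all genes the share called higher was then 2.2% with exoCDN2, 2.26% with CDN2 (20 µg) and 1.82% with CDN2 (100 µg). After 2 doses 4 were higher with exoCDN2 (2 to 5 with 1 tumor left out, 8.87% of all genes) and 4 with CDN2, where 20% of all genes were, so the CDN2 count is near the background. Isg15 was then higher than PBS by 5.61 ± 0.28 with exoCDN2 and by 7.62 ± 0.31 with CDN2, and the difference between the forms passed the test (edgeR adjusted p = 0.00101). Tnfaip3 was also lower with exoCDN2 than with CDN2, by -1.69 ± 0.38 (adjusted p = 0.00741), while Nlrc5 was higher by 1.51 ± 0.36 (adjusted p = 0.00905). Between the forms 1 of the 15 was higher and 3 were lower with exoCDN2, against 7.34% and 12% of all genes, and with 1 tumor left out 0 to 4 were higher and 2 to 3 lower. The third lower gene was Dusp1, a phosphatase of MAP kinases (-3.13 ± 0.56, edgeR adjusted p = 0.0029), and it and Isg15 were called in each of these 4 fits. Nlrc5 was not called without the first CDN2 tumor (1.10, edgeR adjusted p = 0.0667) or the first exoCDN2 tumor (1.23, adjusted p = 0.0565), and Tnfaip3 was not without the first CDN2 tumor (-0.81, adjusted p = 0.0752) or the second exoCDN2 tumor (-1.43, adjusted p = 0.0739).

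**Figure D5:**
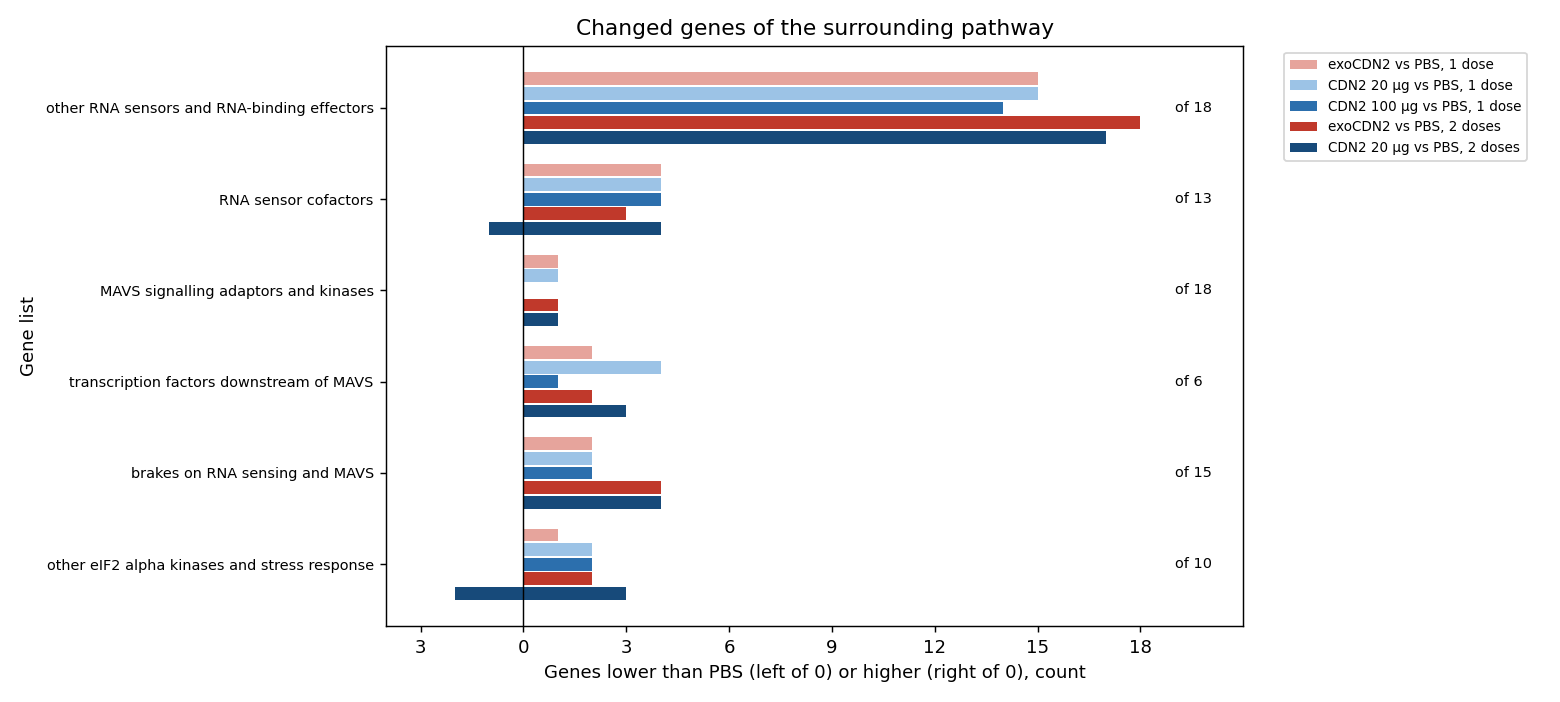
Number of genes of each pathway list called higher (right of 0) or lower (left of 0) than PBS in 5 comparisons, with the number tested at the right. The other RNA sensors and effectors reach 14 to 18 of 18, whereas at most 1 of 18 MAVS adaptors and kinases was called. In these comparisons 1.82% to 20% of all genes were called higher.

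The kin of Eif2ak2 were not called higher after 1 dose of exoCDN2. Eif2ak1, Eif2ak3 and Eif2ak4, the eIF2 alpha kinases that answer to heme, unfolded proteins and amino acid shortage, had log2 differences after 1 dose of exoCDN2 of 0.05 ± 0.19, 0.58 ± 0.31 and 0.14 ± 0.23 (edgeR adjusted p = 0.938, 0.401 and 0.836). After 2 doses of CDN2, Eif2ak3 (-1.78 ± 0.32, edgeR adjusted p = 0.000959) and Eif2ak4 (-1.18 ± 0.23, adjusted p = 0.00167) were lower than PBS (1 to 3 genes of the list with 1 tumor left out, 10.6% of all genes). Of the 10 genes of that list, which includes the stress response downstream of eIF2 alpha, 1 was higher after 1 dose of exoCDN2, Atf3 (2.02 ± 0.41), and 0 with any 1 tumor left out. The list held 2 higher after 1 dose of CDN2 (20 µg), Atf3 (3.09 ± 0.43) and Ppp1r15a (2.91 ± 0.48), the phosphatase subunit that reverses PKR, and 1 to 2 with 1 tumor left out. Of those 10 genes, 2 were higher after 1 dose of CDN2 (100 µg), where 1.82% of all genes were. With 1 dose of exoCDN2 and of CDN2 (20 µg), 2.2% and 2.26% of all genes were called higher. After 2 doses 2 were higher with exoCDN2 and 3 with CDN2 (20 µg), where 8.87% and 20% of all genes were. Of the kin of Adar, Adarb1 alone passed the filter, and it was called in no comparison (log2 difference -0.09 ± 0.24 after 1 dose of exoCDN2). After 2 doses Adarb1 differed from PBS by -0.88 ± 0.24 with exoCDN2 (edgeR adjusted p = 0.0254) and by -0.996 ± 0.25 with CDN2 (20 µg) (adjusted p = 0.00603). Both values passed on p and lay under the limit on the ratio.

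The interferons themselves were followed as counts, since most tumors held few. Ifnb1, interferon beta, had 6 counts in each PBS tumor after 1 dose and 12 and 3 in EV tumors, 1206 and 866 after exoCDN2, 560 and 1963 after CDN2 (20 µg) and 1649 and 1472 after CDN2 (100 µg). After 2 doses it had 7 and 3 counts with exoCDN2, 185 and 40 with CDN2 (20 µg) and 0 in both PBS tumors. After 2 doses of exoCDN2 Ifnb1 thus held about as few counts as in 1-dose PBS tumors, in the same tumors that held 241 and 179.5 CPM of Dhx58. From 1 dose of exoCDN2 to 2 it was lower by -7.99 ± 1.19 (edgeR adjusted p = 0.0036). Ifng, interferon gamma, had 227 and 352 counts after 1 dose of exoCDN2 and 262 and 226 after 2, against 43 and 78 in 1-dose PBS tumors and 2 and 0 in 2-dose PBS tumors. Its log2 change against PBS after 1 dose was 2.34 with exoCDN2, 2.43 with CDN2 (20 µg) and 0.44 with CDN2 (100 µg). None of these was called (edgeR adjusted p = 0.195, 0.171 and 0.898). After 2 doses it was called with exoCDN2 (7.44, adjusted p = 0.00286) and with CDN2 (20 µg) (5.95, adjusted p = 0.0047). Ifng was not called different between these forms (adjusted p = 0.963 after 1 dose and 0.186 after 2). Counts of interferons called changed moved with single tumors. Of 7 tested, 3 were higher after 1 dose of exoCDN2, where 2.2% of all genes were, and fewer were with any 1 tumor left out.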

How the data were processed

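RNA from 18 whole B16F10 tumors was sequenced. The authors aligned the reads to GRCm38 (mm10), estimated expected counts per gene with RSEM and deposited these expected counts without normalization, 1 column per tumor. A read that could come from several genes is shared out by estimate, so paralogs and pseudogenes are uncertain. Symbols, positions and exon lengths were taken from GENCODE M21, which named 50376 of 50600 identifiers.

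The rounded counts went into edgeR 4.0.16 (R 4.3.3) after filterByExpr with a minimum count of 10 and a minimum total of 15, and TMM set the scale of each tumor. The quasi-likelihood fit had a mean for each of 8 groups (16 tumors), and a second fit with 9 groups (18 tumors, 17110 genes) served the group of unlabelled amount. Benjamini-Hochberg adjustment ran over every gene in the fit. The call of a changed gene needs a ratio over 2 as well as an adjusted p under 0.05, as in the study's methods, which used DESeq2. Log2 values are fitted ratios, with standard errors from the F statistic. CPM used the TMM-scaled totals, and levels per length used the union of exons. The procedure was tested on simulated data. The members and the gene lists, written from general knowledge, were chosen with earlier results of these data known. Named besides the members are at most 3 changed genes each way per list by p, the kin of Eif2ak2 and Adar, and the 3 genes most like each member, of which some are not reported here. Interferon counts and a few list members outside that rule (Ifng, Zbp1) were named after their values were seen.

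Replicate numbers run across groups in the titles, and no source says that they pair tumors. Deviations of same-numbered tumors correlated at 0.00 on average over pairs of groups (-0.18 to 0.32), so no block was used in the main model. The p-values measure the spread between these tumors only. Alternatives were DESeq2 1.42.0, RLE factors, no filter, no limit on the ratio, only the compared groups, all 18 tumors, pooled PBS tumors, the replicate block and each tumor left out in turn. The counts of list genes with a tumor left out were added after the data were seen.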

Additional observations from a re-analysis of the deposited data

Results flagged for a closer look

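For 3 results the effect of treatment against PBS differed between 1 dose and 2 by a test of that difference in edgeR's model. Dhx58 changed by 3.43 more on the log2 scale after 2 doses of exoCDN2 than after 1 (adjusted p = 0.00192), with 117 and 124 CPM after 1 dose and 241 and 179.5 CPM after 2, while PBS tumors held 26.8 and 25.1 CPM and then 4.12 and 4.27 CPM. Dhx58 changed by 3.03 more with CDN2 (20 µg) (adjusted p = 0.00309). Ddx58 changed by 1.01 more with CDN2 (20 µg) (adjusted p = 0.0302), with 243 and 198 CPM after 1 dose and 154 and 269 CPM after 2, against 50.1 and 44.8 CPM and then 22.1 and 23.3 CPM in PBS tumors. From 1 dose to 2 Ddx58 differed by -1.06 in PBS tumors and by -0.05 with CDN2 (20 µg), so the fall in PBS tumors makes up its difference. For Dhx58 the PBS tumors differed by -2.63, the larger part. The exoCDN2 and CDN2 tumors differed by 0.80 and 0.41 for Dhx58, neither called changed. With 1 tumor left out at a time the Ddx58 value of 1.01 ran from 0.48 to 1.33. The comparisons share those PBS tumors.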

How the results depend on the processing

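The number of members called stayed within 1.5 times in 66 of 84 fits that left out a tumor and in 124 of 131 other settings, and among values of single members 428 of 504 and 754 of 786 kept their direction and their side of the threshold. With the replicate number as a block, all 18 member counts kept the value of the model without it, for example 5 for 1 dose of exoCDN2 against PBS, and no call of a single member changed, but the numbers are shared only as labels. With 2 tumors per group the estimate of spread is shared by all groups, and a group left with 1 tumor is assumed to vary like the others.

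Counts moved as follows, and the cause was not tested. For exoCDN2 (1 dose) against CDN2 (20 µg), 1 member was called with DESeq2, with no filter and with only the compared groups. With no limit on the ratio 2 were lower after 2 doses of CDN2 than after 1. For the CDN2 change relative to PBS, 1 was called with no filter and with only the compared groups. Against pooled PBS tumors 0 were called for CDN2 of unlabelled amount. With a tumor left out the counts ran from 2 to 5 for exoCDN2 against PBS after 1 dose, 0 to 1 between exoCDN2 and CDN2 after 2 doses, 1 to 3 between PBS groups, 0 to 1 and 1 to 2 for 2 doses against 1 of exoCDN2 and CDN2, 1 to 2 for both changes relative to PBS, 0 to 2 for their difference and 1 to 4 for CDN2 of unlabelled amount against PBS.

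No value was called in a fit that turned its sign, but 3 of the values listed here were called with a different tumor left out: Eif2ak2 in the exoCDN2 change relative to PBS (1.16), and Dhx58 (1.22) and Adar (1.02) in the difference between the changes. With RLE factors Dhx58 in exoCDN2 against CDN2 after 2 doses was -0.00096, and Eif2ak2 in the exoCDN2 change relative to PBS was -0.032, and with DESeq2 -0.030. With no filter Mavs in CDN2 (100 µg) against PBS was -0.00195. With pooled PBS tumors the EV values were 0.20 for Ddx58, 0.27 for Ifih1, 0.27 for Dhx58 and 0.27 for Eif2ak2, and Mavs was -0.15 for CDN2 (100 µg) and 0.0066 for CDN2 of unlabelled amount. The log2 value turned sign with a tumor left out for CDN2 100 µg against PBS (1 dose), Mavs (-0.091 to 0.0945), for CDN2 100 µg against CDN2 20 µg (1 dose), Mavs (-0.12 to 0.20), for exoCDN2 (1 dose) against CDN2 20 µg (1 dose), Ifih1 (-0.0345 to 0.28) and Mavs (-0.29 to 0.0454), for CDN2 20 µg (2 doses) against CDN2 20 µg (1 dose), Ddx58 (-0.57 to 0.28), Mavs (-0.21 to 0.0897) and Dhx58 (-0.45 to 0.90). The log2 value turned sign with a tumor left out for the CDN2 change from 1 dose to 2 relative to PBS, Ifih1 (-0.38 to 0.69) and Adar (-0.88 to 0.17), for CDN2 20 µg (1 dose) against PBS (1 dose), Mavs (-0.18 to 0.12), for EVs against PBS (1 dose), Mavs (-0.031 to 0.00839), for the exoCDN2 change from 1 dose to 2 relative to PBS, Mavs (-0.20 to 0.21), Eif2ak2 (-0.60 to 1.16) and Ifih1 (-0.19 to 0.88). The log2 value turned sign with a tumor left out for exoCDN2 (2 doses) against CDN2 20 µg (2 doses), Ddx58 (-0.11 to 0.74) and Dhx58 (-0.48 to 0.88), for the difference between those changes, Ifih1 (-0.0613 to 0.44), Dhx58 (-0.14 to 1.22) and Adar (-0.0411 to 1.02), for exoCDN2 (2 doses) against PBS (2 doses), Mavs (-0.37 to 0.0386), for exoCDN2 (2 doses) against CDN2 of unlabelled amount, Mavs (-0.13 to 0.0411). The log2 value turned sign with a tumor left out for CDN2 of unlabelled amount against PBS (2 doses), Mavs (-0.33 to 0.0856).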
